A study of Bos taurus with 15 samples.

Results

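The genes described here were 6 genes of ketone body and butyrate metabolism among the 27270 genes listed in the cattle count tables: *SLC16A1* (ENSBTAG00000015107), *BDH1* (ENSBTAG00000000448), *ACAT1* (ENSBTAG00000012885), *OXCT1* (ENSBTAG00000033186), *CPT1A* (ENSBTAG00000021999) and *PPARA* (ENSBTAG00000008063). They were chosen by symbol, and all 6 were found. Single-cell RNA sequencing counts were available from 11 newborn (NB) libraries (forestomach as reticulum and omasum, abomasum, liver, salivary gland, small intestine as duodenum, jejunum and ileum, and large intestine as cecum, colon and rectum) and 4 adult (AD) libraries (duodenum, jejunum, cecum and colon), all from Holstein cattle. The NB tissues came from 3 calves, with the calf behind each library not named, and the AD tissues came from 1 lactating cow. Ages were not given in the labels. Dissociation differed with tissue and stage. NB gut tissues were incubated with EDTA and trypsin. NB reticulum, omasum and abomasum were then digested with collagenases, hyaluronidase, DNase and dispase, and NB intestine with a propria dissociation kit. NB liver was digested with collagenase, papain and DNase, and NB salivary gland with collagenase, dispase and DNase. AD duodenum and cecum were digested with a lamina propria kit, and AD jejunum and colon with a multi-tissue kit. There was a single library for every combination of tissue and stage. No replicate error or test could therefore be given, and the parts of stage, animal and dissociation in a difference cannot be told apart.

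In mature ruminants, the epithelium of the forestomach absorbs the butyrate made by fermentation and turns much of it into ketone bodies, whereas in most mammals the liver is the main site of ketone synthesis. Butyrate and ketone bodies cross cell membranes through monocarboxylate transporters. Inside the mitochondrion they are linked to acetyl-CoA by thiolases, dehydrogenases and CoA transferases, and several of these enzymes run in either direction. The nuclear receptor PPARA switches on fatty acid oxidation and ketone synthesis genes when fatty acids reach the liver.

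Levels were summed over barcodes with at least 1 UMI (a counted RNA molecule) of *EPCAM* or *KRT14*, which mark simple and stratified epithelium, and are given as CPM, the count scaled to a library total of 1e6 UMIs. Of 119798 barcodes that passed the filters, 31404 were epithelial by this definition, from 73 in NB salivary gland to 9483 in NB omasum. They held 539518 to 91889331 UMIs per library. Intervals are exact Poisson 95% intervals, which cover counting error only. Marker lists set some tissues apart and not others. Basal keratinocyte genes summed to 15982 CPM in reticulum and 18208 CPM in omasum and to at most 247 CPM elsewhere, and chief cell genes summed to 269521 CPM in abomasum. So large a share lowers the CPM of all other genes in abomasum. The salivary acinar list did not mark the salivary library, with 1158 CPM there against 4908 CPM in NB cecum and 1604 CPM in AD jejunum. In NB ileum the enterocyte list summed to 213 CPM, against 14060 and 17953 CPM in NB duodenum and jejunum. In the liver library the 229 *EPCAM* barcodes carried hepatocyte genes at 15812 CPM, of which *AHSG* made up 9985 CPM and *ALB* only 722 CPM, beside bile duct genes at 4631 CPM. The enterocyte list, which holds apolipoprotein genes that liver cells also use, summed to 29714 CPM there. They are called liver *EPCAM* barcodes below and not hepatocytes. The leukocyte gene *PTPRC* was found in 0.0775% and 0.0738% of epithelial barcodes of reticulum and omasum, in 1.58 to 29.3% of those of the other NB gut tissues, and in 73.4%, 39.2%, 56.0% and 60.7% of those of AD duodenum, jejunum, cecum and colon. In NB salivary gland it was found in 52.1% of the 73 barcodes. The fibroblast gene *COL1A2* was found in 33.8% and 35.9% of epithelial barcodes of NB cecum and rectum. It was in at most 12.2% of those of the other NB gut tissues and at most 1.24% of the AD ones. Any of *PTPRC*, *COL1A2* and *PECAM1* was found in 59.6% and 56.9% of those of NB cecum and rectum. In AD duodenum, jejunum, cecum and colon this share was 75.8%, 39.9%, 56.0% and 62.1%. Some results are therefore also given for barcodes without *PTPRC*, *COL1A2* or *PECAM1*, called marker-free barcodes. No pair of libraries shared more than 36 kept barcodes (0.379% of the smaller library).

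*SLC16A1*, the proton-linked transporter of lactate, ketone bodies and short-chain fatty acids, had its highest NB levels in the forestomach. The level was 239 CPM (236 to 243) in reticulum and 177 CPM (175 to 180) in omasum. NB duodenum, jejunum and ileum reached 47.8, 37.4 and 24.6 CPM, and NB cecum, colon and rectum 52.0, 26.5 and 46.6 CPM. The lowest forestomach level was thus 3.42 times the highest intestinal level. NB abomasum was lowest of all at 1.12 CPM (0.876 to 1.41; 0.420 in marker-free barcodes), liver *EPCAM* barcodes had 9.49 CPM and salivary gland had 14.8 CPM. The abomasum, which joins the omasum directly, stood at the other end of the range from it. In AD tissues the level was 8.57 CPM in duodenum, 10.4 in jejunum, 97 in cecum and 126 in colon, which put AD large intestine next after the forestomach. In marker-free barcodes this order turned, with 222 CPM (202 to 245) in AD colon above 179 CPM (176 to 182) in omasum. Over the 15 libraries the highest level was 214 times the lowest. Of the 14 neighboring pairs in this order, 7 had separate intervals, more than for any of the other 5 genes.

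*BDH1*, the mitochondrial dehydrogenase that interconverts acetoacetate and beta-hydroxybutyrate, was found in 2 separate parts of the NB tract. Its level was 27.4 CPM (26.2 to 28.7) in reticulum and 21.1 CPM (20.2 to 22.1) in omasum. It was 27.2 CPM (23.5 to 31.3) in cecum, 13.6 in colon and 40.5 (37.1 to 44.2) in rectum. Between these parts the levels were low. Abomasum had 5.55 CPM, duodenum 0.306 (13 UMIs), jejunum 1.22 (17 UMIs) and ileum 5.12. Liver *EPCAM* barcodes held 1 UMI, which gives 0.730 CPM with an upper bound of 4.07. NB salivary gland held 0 of 539518 UMIs, which allows up to 5.56 CPM. Reticulum and cecum, and colon and AD colon (13.3 CPM), were neighbors in the order with overlapping intervals. In marker-free barcodes cecum had 37.6 CPM (30.7 to 45.6) and reticulum 27.8 CPM (26.5 to 29.1), with the intervals apart. The other AD levels were 2.57 CPM in duodenum, 4.31 in jejunum and 10.8 in cecum. Marker-free barcodes had 58.2 CPM (52.3 to 64.7) in NB rectum and 20.5 CPM (14.5 to 28.2) in AD colon.

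*OXCT1* encodes the CoA transferase that activates acetoacetate so that it can be burned, the step that commits ketone bodies to use. In the forestomach, where *SLC16A1* was high, it was low. Reticulum had 11.9 CPM (11.1 to 12.7) and omasum 18.7 CPM (17.8 to 19.6). NB duodenum, jejunum and ileum had 29.6, 34.2 and 52.8 CPM, and NB cecum, colon and rectum 41.6, 40.7 and 43.1 CPM, all above the forestomach. NB abomasum had 22.1 CPM, liver *EPCAM* barcodes 14.6 (8.92 to 22.5) and NB salivary gland 38.9. In marker-free liver barcodes only 1 UMI was left, a level of 1.14 CPM (0.0290 to 6.38), so the liver level rested on barcodes with markers of other cells. In AD tissues the gene stood at 43.7, 43.5, 54.9 and 55.9 CPM in duodenum, jejunum, cecum and colon, a narrow range. In marker-free barcodes they had 48.8, 42.9, 56.7 and 44.3 CPM.

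*ACAT1*, the mitochondrial thiolase that joins or splits acetoacetyl-CoA, varied little along the tract. It was highest in liver *EPCAM* barcodes at 123 CPM (105 to 143). The forestomach had 43.3 CPM in reticulum, near the lower end, and 54.5 CPM in omasum, close to the median of 56.2 CPM over the 15 libraries. NB duodenum, jejunum and ileum had 80.7, 71.3 and 65.6 CPM, and NB cecum, colon and rectum 57.1, 73.4 and 47.5 CPM. NB abomasum was lowest at 37.2 CPM. Chief cell genes took up 269521 CPM there, which lowers other genes, so this rank and the range below may rest on scaling. NB salivary gland had 46.3 (86.7 in marker-free barcodes, 47.4 to 145), and AD duodenum, jejunum, cecum and colon had 46.3, 47.8, 56.2 and 92.1 CPM. In marker-free barcodes these were 35.8, 55.5, 68.4 and 121 CPM. The whole range was 3.31-fold, and 12 of 14 neighboring pairs had overlapping intervals.

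*CPT1A*, which loads long-chain fatty acids onto carnitine for entry into the mitochondrion, was measured in every library, with a 2.67-fold range. Reticulum and omasum were almost equal at 40.5 and 40.0 CPM. NB duodenum, jejunum and ileum had 66.4, 41.2 and 37.7 CPM, and NB cecum, colon and rectum 60.6, 40.7 and 59.6 CPM, so that the forestomach lay inside the intestinal range. Liver *EPCAM* barcodes had 101 CPM, salivary gland 76.0 and abomasum 71.2. In marker-free barcodes the salivary level was 142 CPM (90.2 to 214). AD duodenum, jejunum, cecum and colon had 42.8, 68.2, 89.3 and 80.2 CPM, and their marker-free barcodes 65.0, 75.3, 117 and 119 CPM.

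*PPARA*, the nuclear receptor, was low in every library. The highest level was 4.89 CPM (4.25 to 5.60) in NB duodenum, followed by 4.38 CPM in liver *EPCAM* barcodes (1.61 to 9.53). NB jejunum had 3.43 CPM and NB ileum 1.23. Reticulum, omasum and abomasum had 1.74, 1.00 and 0.839 CPM, and NB cecum, colon and rectum 1.70, 1.80 and 1.93 CPM. AD tissues had 2.16 to 3.59 CPM and NB salivary gland had 0 UMIs. None of the 14 neighboring pairs had separate intervals, and the gene did not reach the mean of 5 CPM that was required for the counts of called genes.

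**Figure D1:**
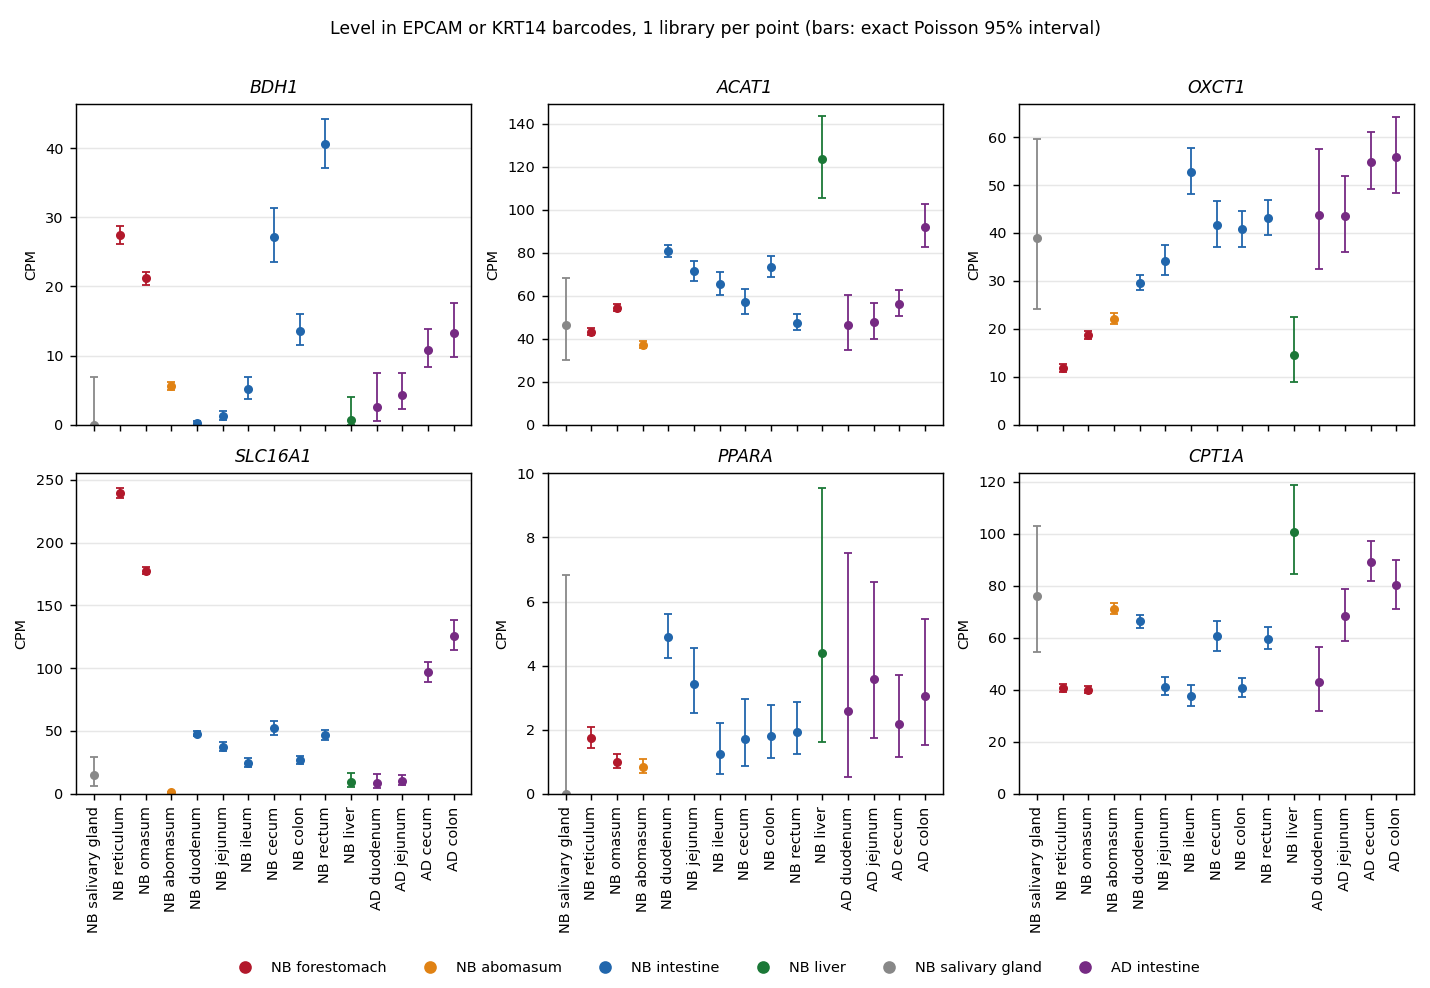
Level of each gene in CPM (vertical axes, from 0) in epithelial barcodes of the 15 libraries (horizontal axis), with 1 point per library and exact Poisson 95% intervals as bars. *SLC16A1* stands at 239 and 177 CPM in reticulum and omasum against at most 52.0 CPM in NB intestine, *BDH1* is high in forestomach and NB large intestine, and *OXCT1* is lower in both forestomach libraries than in all 6 NB intestinal libraries.

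The first comparison asked which of these genes set the NB forestomach apart from the NB intestine. The 2 parts were also digested with different enzymes, which cannot be told apart from tissue. A gene was called where both forestomach libraries lay above, or both below, all 6 intestinal libraries. Of the 5 members that reached a mean of 5 CPM, *SLC16A1* was called higher and *OXCT1* lower. By this rule 19.3% of all 9372 genes tested were called higher and 24.8% lower, so that 1 member of 5 in each direction was close to the share of all genes. With TMM scaling the shares were 24.7% and 21.2%. For *SLC16A1* the mean of 208 CPM in forestomach was 5.32 times the mean of 39.2 CPM in intestine, a log2 ratio of 2.27 with 5 CPM added to each level. It was also called where a gap of at least 2-fold was asked for between the nearest libraries, a rule that was added later and met by 3.19% of all genes in this direction and by 4.43% in the other, where no member met it. *OXCT1* had means of 15.3 and 40.3 CPM (log2 ratio -1.16), but the lowest intestinal level was only 1.59 times the highest forestomach level. The other members overlapped, with log2 ratios of 0.58 for *BDH1*, -0.40 for *ACAT1* and -0.31 for *CPT1A*. In marker-free barcodes *ACAT1* and *CPT1A* were called lower as well (21.1% of all genes), *CPT1A* by a narrow margin, with 40.1 CPM in reticulum against 40.8 CPM in jejunum and overlapping intervals. The median log2 ratio over the 5 members was -0.31, and over all genes tested it was -0.04.

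Against NB liver *EPCAM* barcodes, *BDH1* and *SLC16A1* were at least 2-fold higher in both forestomach libraries, and *ACAT1* and *CPT1A* at least 2-fold lower. Among 9336 genes tested, 8% were called higher and 19% lower. The log2 ratios were 2.35 for *BDH1* and 3.88 for *SLC16A1*. For *ACAT1* and *CPT1A* they were -1.25 and -1.22, and for *OXCT1* 0.05. In marker-free liver barcodes *ACAT1* had 164 CPM and *CPT1A* 111 CPM, both again called lower in the forestomach (21.3% of all genes). There *OXCT1*, at 1.14 CPM from 1 UMI in liver, joined *BDH1* and *SLC16A1* as called higher (9.19% of all genes). Since the liver *EPCAM* barcodes were few and 37.1% of them carried *PTPRC*, the 25% of all kept liver barcodes with the largest share of hepatocyte genes were used as well. There the list summed to 4836 CPM, with 7 of its 11 genes below their level in the *EPCAM* barcodes (*AHSG* 1281 CPM, *ALB* 267 CPM) and 4 above it (*FGB* 1373 against 1006 CPM, *SERPINA1* 275 against 92.0 CPM, *APOH* and *APOC3*). *PTPRC* was at 339 CPM in them, against 161 CPM in the *EPCAM* barcodes. In these barcodes *BDH1* had 0.249 CPM and *SLC16A1* 22.5 CPM, both still called higher in the forestomach (11.4% of all genes). *CPT1A* had 94.6 CPM and was still called lower (17.1% of all genes), but *ACAT1* had 45.9 CPM, and its log2 ratio turned to 0.08. *OXCT1* had 28.5 CPM in them and was not called, with a log2 ratio of -0.73. Liver barcodes with *PTPRC* and without *EPCAM* or *KRT14* had 104 CPM of *CPT1A*. All kept liver barcodes had 99.3 CPM of *CPT1A*, so its liver level was not particular to the *EPCAM* barcodes or to the 25% set. The same *PTPRC* barcodes had 26.9 CPM of *SLC16A1*, 24.1 of *ACAT1*, 30.5 of *OXCT1* and 0.653 of *BDH1*. With TMM scaling, where 16.6% of all genes were higher and 10.2% lower, neither *ACAT1* nor *CPT1A* was called lower.

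Within the NB intestine, *BDH1* was the only one of the 5 tested members that separated the large from the small intestine. Its 3 large-intestinal levels of 13.6 to 40.5 CPM lay above the 3 small-intestinal levels of 0.306 to 5.12 CPM. The comparison was added after the levels had been seen, and 9.93% of all 9263 genes tested were higher in this way and 9.26% lower. *SLC16A1*, *OXCT1*, *ACAT1* and *CPT1A* overlapped between these parts.

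Other cells of the same libraries gave the level of each gene outside the epithelium. Barcodes with *PTPRC* and without *EPCAM* or *KRT14* (leukocytes) had 0 to 6.0 CPM of *BDH1* in the 7 NB libraries from abomasum to rectum, against 27.2, 13.6 and 40.5 CPM in the epithelium of cecum, colon and rectum. In ileum the leukocyte level of *BDH1* was as high as the epithelial one. *SLC16A1* was not limited to the epithelium. In NB abomasum, duodenum and jejunum it was higher in leukocytes, at 22.2, 88.0 and 98.6 CPM, than in epithelial barcodes, at 1.12, 47.8 and 37.4 CPM. In ileum, cecum, colon and rectum the leukocyte levels of 26.4, 40.4, 21.5 and 39.6 CPM were closer to the epithelial ones. Reticulum and omasum held only 9 and 4 leukocyte barcodes, so their *COL1A2* barcodes (fibroblasts) were used as the reference there. These 88 and 209 barcodes had 28.2 CPM (10.3 to 61.4, 6 UMIs) and 22.3 CPM (10.2 to 42.3, 9 UMIs) of *SLC16A1*. They held no UMI of *BDH1*, with upper bounds of 17.3 and 9.14 CPM. *OXCT1* showed the opposite order in the forestomach, with 65.8 and 44.6 CPM (14 and 18 UMIs) in fibroblasts of reticulum and omasum against 11.9 and 18.7 CPM in epithelium. No member was called at least 2-fold higher or lower in epithelial barcodes without *PTPRC* than in leukocytes in all 9 NB gut libraries, where 1.8% and 2.96% of all 9389 genes tested were. In the 7 libraries from abomasum to rectum alone there was none either, against 2.74% and 5.37% of all genes.

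The share of barcodes with a UMI gave the same picture for *SLC16A1*. After each barcode had been thinned to 1000 UMIs, it was found in 20.3% of epithelial barcodes of reticulum (19.3 to 21.3%, Clopper-Pearson) and 15.1% of those of omasum (14.3 to 15.8%), with 30 and 21 shallower barcodes left out. Without thinning the shares were 70.7% and 62.8%. In NB duodenum the thinned share was 3.97% in epithelial barcodes and 8.75% in leukocytes, at median depths of 11984.5 and 10023 UMIs before thinning. The level there was 16.7 CPM (12.0 to 22.6) in *COL1A2* barcodes (fibroblasts) and 47.8 CPM (45.7 to 49.9) in epithelial barcodes. The part of background RNA in the epithelial share was not tested. For *BDH1* the thinned share was 2.32% in reticulum and 1.93% in omasum. Cecum, colon and rectum had 2.37%, 1.62% and 2.47% in epithelial barcodes and 0.0873%, 0.197% and 0.413% in leukocytes.

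The epithelium of a library holds cells at different stages of maturation, so the 25% of epithelial barcodes with the largest share of a marker list were set against the others, with CPM taken over UMIs outside the list. Such a set is a range of a score and not a cell type. The splits used all epithelial barcodes, with or without *PTPRC*, *COL1A2* or *PECAM1*. The others in a split can therefore include cells of other types. In the forestomach, *BDH1* was higher in barcodes rich in differentiated keratinocyte genes. It had 43.2 against 21.3 CPM in reticulum and 33.0 against 16.6 CPM in omasum. In barcodes rich in basal keratinocyte genes it was lower, with 16.7 against 30.9 CPM in reticulum and 14.4 against 23.5 CPM in omasum. *SLC16A1* went the other way in omasum, with 266 CPM in the basal set against 157 CPM in the others. In reticulum the same difference was small, at 273 against 235 CPM. It was 155 CPM in the differentiated set of omasum against 189 CPM in the others, and 251 against 236 CPM in reticulum. *OXCT1* stayed within 11.7 to 12.2 CPM in reticulum in both keratinocyte splits.

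*ACAT1* was higher in barcodes rich in cell division genes. In omasum it had 104 CPM in the 25% of barcodes with the most division genes against 33.4 CPM in the others, and in reticulum 62.6 against 35.0 CPM. This direction was seen in 8 of 8 NB libraries of forestomach and intestine, and the intervals were apart in 7 of them. The exception was rectum, with 52.2 against 45.9 CPM.

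In the abomasum the library levels covered large differences between barcodes. Those rich in parietal cell genes, the acid-secreting cells, had 114 CPM of *OXCT1* (107 to 121) against 5.33 CPM in the others. The same set had 122 against 21.7 CPM of *ACAT1* and 176 against 52.2 CPM of *CPT1A*. *BDH1* had its highest abomasal level in barcodes rich in pit cell genes, with 29.1 against 1.18 CPM, and *CPT1A* had 167 against 53.5 CPM there. In barcodes rich in chief cell genes *BDH1* was almost absent, at 2 UMIs or 0.151 CPM, and *CPT1A* was 40.0 CPM against 120 CPM in the others. *SLC16A1* did not pass 2.89 CPM in any of the 3 sets. Every member was higher in the parietal set, with intervals apart, and none was higher in the chief set. Chief cell genes, at 269521 CPM over the library, stayed in the totals of the parietal and pit splits and lower other genes. The part of this scaling in the differences was not tested.

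In the NB large intestine, *BDH1* and *SLC16A1* were both higher in barcodes rich in enterocyte genes. Of the epithelial barcodes split here, 59.6% in cecum, 18.3% in colon and 56.9% in rectum carried *PTPRC*, *COL1A2* or *PECAM1*. The part of such barcodes in these differences was not tested. For *BDH1* the levels were 72.2 against 11.8 CPM in cecum, 43.4 against 3.94 CPM in colon and 95.8 against 16.9 CPM in rectum. For *SLC16A1* they were 88.3 against 39.5 CPM, 46.7 against 19.9 CPM and 74.6 against 34.7 CPM. This direction of *SLC16A1* was not particular to the large intestine. It was seen in 6 of 6 NB intestinal libraries, with intervals apart in 4. In the NB small intestine the enterocyte set had less than 4 CPM of *BDH1*. *PPARA* reached its highest values in the enterocyte sets of NB duodenum, with 7.61 CPM (6.13 to 9.33) against 3.89 CPM, and NB jejunum, with 7.15 CPM (4.58 to 10.6) against 2.31 CPM. The list made up 0.0598 to 0.133% of the UMIs in the large-intestinal sets and 4.15% and 6.83% in those of duodenum and jejunum, so the sets differ in how much of the list they carry.

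**Figure D2:**
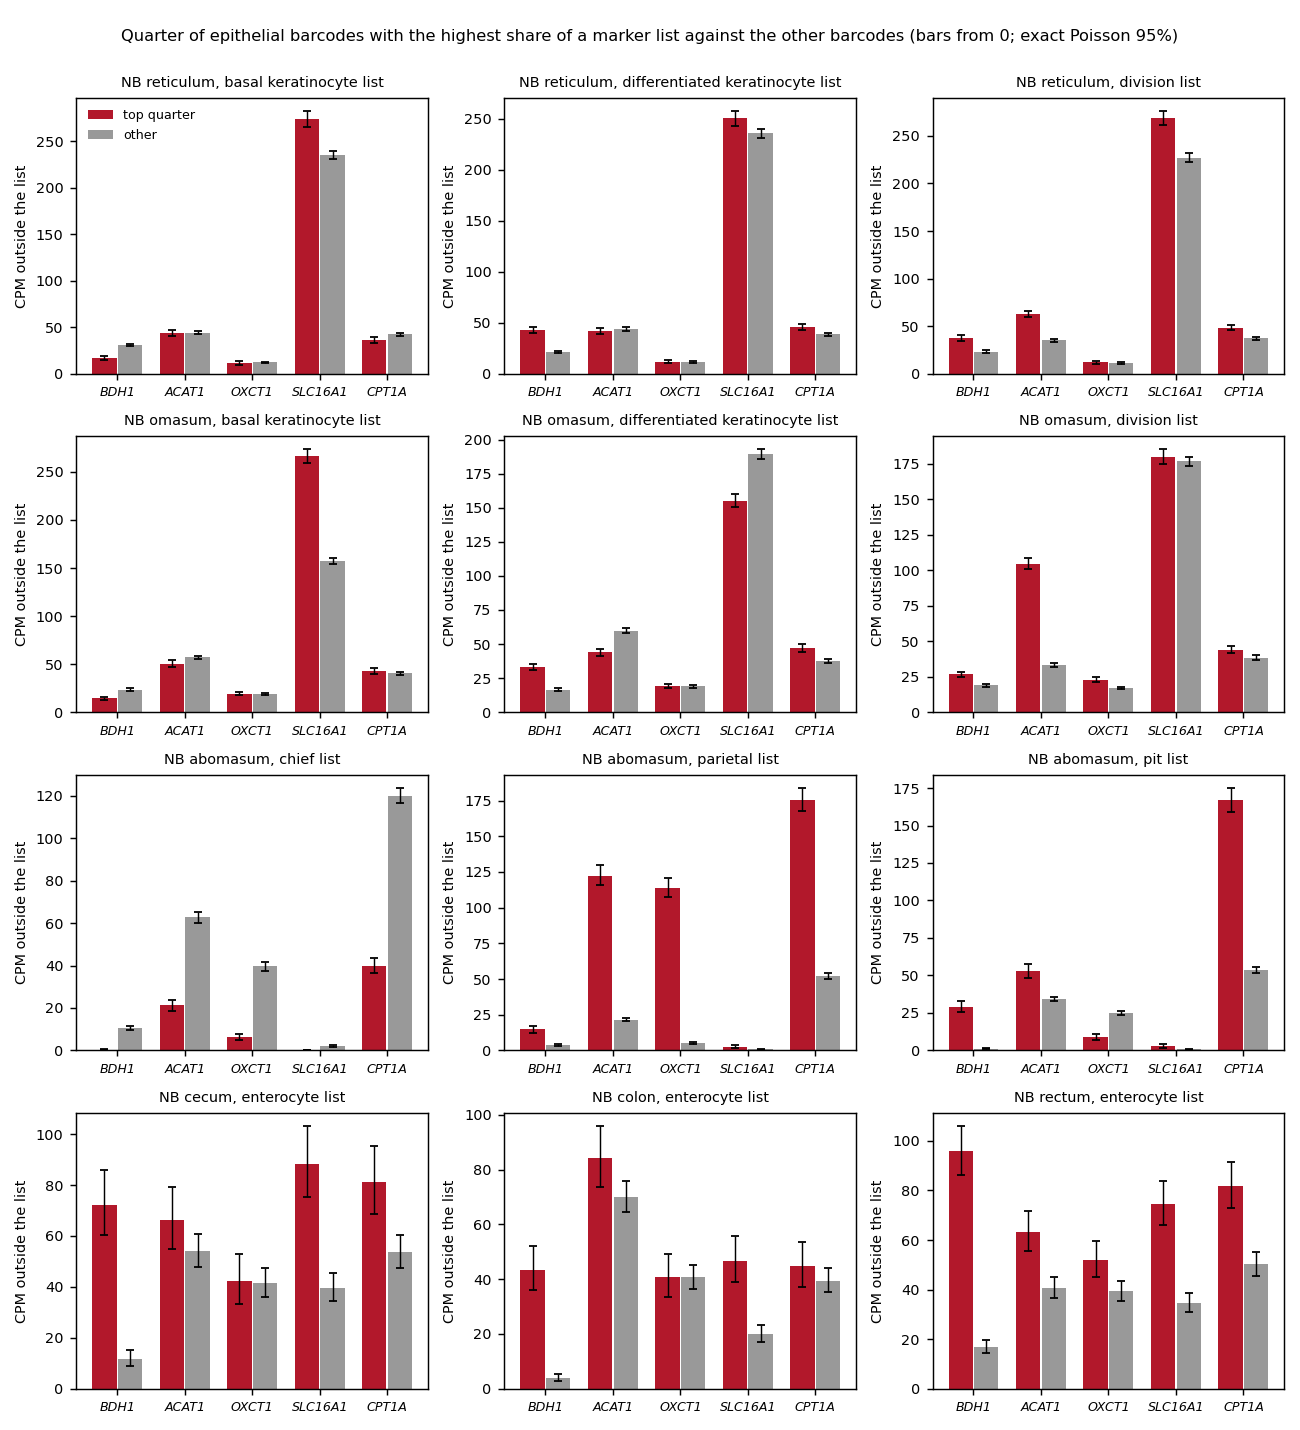
Level in CPM over UMIs outside the marker list (vertical axes, bars from 0) of 5 genes in the 25% of epithelial barcodes with the largest share of a marker list (red) and in the other barcodes (grey), with exact Poisson 95% intervals, for 4 sets of tissues by row. *BDH1* is higher in the differentiated sets of forestomach and in the enterocyte sets of large intestine, *ACAT1* in the division set of omasum (104 against 33.4 CPM), and *OXCT1* in the parietal set of abomasum (114 against 5.33 CPM).

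The 4 tissues with both stages were used to compare AD with NB epithelium. *SLC16A1* was lower in the AD small intestine and higher in the AD large intestine. In duodenum it was 47.8 CPM in NB and 8.57 CPM in AD, a ratio of AD to NB of 0.179 (0.0859 to 0.330), and in jejunum 37.4 and 10.4 CPM, a ratio of 0.278 (0.185 to 0.405). Leukocytes of NB duodenum and jejunum had more, at 88.0 and 98.6 CPM, and *COL1A2* barcodes less, at 16.7 and 15.6 CPM. Marker-free barcodes there had 47.6 and 31.2 CPM. The part of background RNA in the NB epithelial levels was not tested. In cecum the levels were 52.0 and 97 CPM, a ratio of 1.87 (1.63 to 2.13), and in colon 26.5 and 126 CPM, a ratio of 4.75 (4.09 to 5.52). On the log2 scale with 5 CPM added, the differences were -1.96, -1.46, 0.84 and 2.05, and the cecum value was 0.13 where each barcode was given equal weight and 0.18 where the limit on mitochondrial UMIs was 20%. With a call at 2-fold among 9522 genes, 0 members were higher and 1, *SLC16A1*, lower in duodenum, where 21.9% and 15% of all genes were. In jejunum *SLC16A1* was again the 1 member called lower (6.65% of all genes) and no member was higher (11.4%). In cecum 0 members were higher (6.57%) and 1, *BDH1*, lower (8.42%), and in colon 1, *SLC16A1*, was higher (16.2%) and 0 lower (4%). Among marker-free barcodes the levels in AD cecum and colon were 145 and 222 CPM and the log2 differences -1.83, -2.15, 1.15 and 2.86. The AD duodenum and jejunum values then rested on 3 and 6 UMIs. The gene was then called in all 4 tissues, lower in duodenum (11.6% of all 8928 genes tested) and jejunum (5.77%) and higher in cecum (6.69%) and colon (14.6%). In that set, *SLC16A1* was 1 of 4 genes (0.0448% of 8928) that were at least 2-fold lower in both parts of the small intestine and at least 2-fold higher in both parts of the large intestine. In all epithelial barcodes 4 genes (0.042% of 9522) met this rule, which was chosen after the values had been seen, and *SLC16A1* missed it in cecum. In the AD large intestine the gene lay mainly in barcodes rich in enterocyte genes, with 199 against 28.9 CPM in cecum and 301 against 22.9 CPM in colon. These barcodes were also deeper, with medians of 15093 and 12146 UMIs against 4478 and 4823.5. Of all epithelial barcodes, 56.0% in AD cecum and 62.1% in AD colon carried *PTPRC*, *COL1A2* or *PECAM1*, and their part was not tested. In the enterocyte set of AD jejunum no UMI of *SLC16A1* was counted.

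*BDH1* was the member called lower in AD cecum, with 10.8 CPM against 27.2 CPM in NB, a ratio of 0.398 (0.295 to 0.529). In colon the levels of 13.3 and 13.6 CPM gave a ratio of 0.975 (0.690 to 1.36). In AD duodenum and jejunum it was counted 3 and 12 times, and the ratios of 8.40 (1.54 to 30.6) and 3.54 (1.54 to 7.87) compare levels under 5 CPM. In marker-free barcodes of AD duodenum it was called higher (17.3% of all genes), on 2 UMIs. In marker-free barcodes of cecum *BDH1* had 16.1 CPM in AD and 37.6 CPM in NB and was again called lower (4.88% of all genes). In the enterocyte set of AD cecum *BDH1* had 20.8 CPM, against 72.2 CPM in the NB set.

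In all epithelial barcodes the other members changed less than 2-fold in all 4 tissues. With TMM scaling, which moved the median of all genes in duodenum from 0.23 to -0.24, *ACAT1* and *CPT1A* had log2 differences of -1.31 and -1.14 there. Both passed the 2-fold rule with this scaling, for which the share of all genes lower in duodenum is not given here. *OXCT1* was higher in AD in each of the 4 tissues, with ratios of 1.48 in duodenum, 1.27 in jejunum, 1.32 in cecum and 1.37 in colon, all with intervals above 1. In marker-free barcodes the interval held 1 in 3 of the 4 tissues, the exception being jejunum. Its log2 differences of 0.31 to 0.49 stood beside medians over all genes of 0.12 to 0.31, and with TMM scaling they ran from -0.05 to 0.23. *CPT1A* was lower in AD duodenum, with a ratio of 0.645 (0.478 to 0.853), and higher in jejunum (1.66), cecum (1.47) and colon (1.97). In marker-free barcodes it was called higher in cecum (6.69% of all genes), at a log2 difference of 1.00 that only just met the rule, and in colon (14.6%), at 1.39 (1.29 with at least 2 UMIs and 1.07 with no upper limit on genes), and the ratio in duodenum was 0.968 (0.591 to 1.50). No member was called higher in jejunum (12.5% of all genes) or lower in colon (3.97%) in those barcodes. *ACAT1* was lower in AD duodenum (0.573) and jejunum (0.670), near 1 in cecum (0.985, 0.850 to 1.14) and 1.25 in colon, where TMM scaling turned its sign. In marker-free barcodes of AD duodenum, from 11 UMIs, it was called lower (11.6% of all genes). *PPARA* had intervals that held 1 in all 4 tissues. No member was called the same way in 4 of 4 tissues, as were 2.5% (higher) and 0.861% (lower) of all genes, nor in marker-free barcodes, where 1.6% and 0.851% were.

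Markers of other cells moved with stage. The leukocyte list summed to 3078, 1252, 1575 and 2303 CPM in epithelial barcodes of AD duodenum, jejunum, cecum and colon, against 102, 333, 874 and 404 CPM in NB. From NB to AD the fibroblast list fell from 91.5 to 0 CPM in duodenum, 402 to 1.08 in jejunum and 2428 to 0.166 in cecum. In colon the fibroblast list rose from 100 to 242 CPM. The tuft cell list summed to 55.2 to 282 CPM in AD and 0.635 to 12.7 CPM in the same NB tissues, and the enterocyte list went from 14060 to 463 CPM in duodenum, from 17953 to 4528 CPM in jejunum, from 280 to 775 CPM in cecum and from 395 to 1351 CPM in colon, the same directions as *SLC16A1* in all 4 tissues. The enteroendocrine list did so too, from 43.3 to 2.57 CPM in duodenum, 15.4 to 1.80 in jejunum, 6.80 to 2043 in cecum and 290 to 1484 in colon. Leukocyte barcodes of AD cecum and colon had only 6.77 and 7.80 CPM of *SLC16A1*, far under the epithelial 97 and 126 CPM. In AD duodenum and jejunum they had 18.7 and 56.3 CPM, above the epithelial 8.57 and 10.4 CPM. After thinning, *SLC16A1* was found in 6.98% of epithelial barcodes of AD colon and 0.420% of leukocytes (21.1% and 2.37% unthinned). The part of these markers in the stage differences was not tested.

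**Figure D3:**
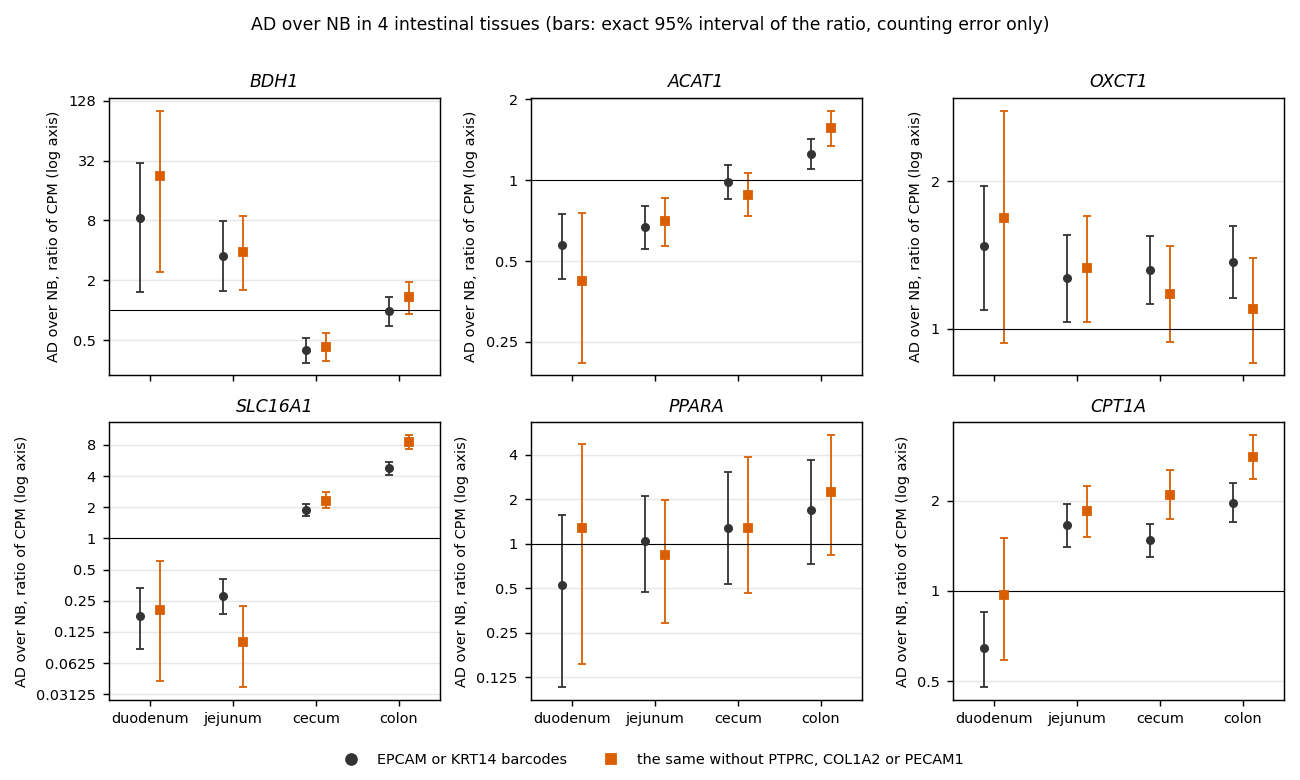
Ratio of AD to NB level (vertical axes, logarithmic) of each gene in 4 intestinal tissues (horizontal axes), in all epithelial barcodes (black circles) and in marker-free barcodes (orange squares), with exact 95% intervals that cover counting error only. *SLC16A1* lies under 1 in duodenum and jejunum and above 1 in cecum and colon with both definitions, and *BDH1* lies under 1 in cecum.

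The rest of the pathway was read from lists of 89 genes, of which 81 were in the files and 75 were not members. In the comparison of forestomach with intestine, 51 of these 75 were tested, and 10 were higher and 14 lower, close to the 19.3% and 24.8% of all genes. Their median log2 ratio was -0.12.

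Of the butyrate activation and short-chain oxidation genes, 3 of 10 tested were higher in forestomach and 4 lower, against 19.3% and 24.8% of all genes. The higher ones were the oxidation enzymes *ECHS1* (294 and 252 CPM against at most 230), *HADH* (165 and 199 against at most 103) and *ACAA2* (213 and 178 against at most 151). Among the lower ones, the acyl-CoA synthetases *ACSS1*, *ACSS2* and *ACSS3* had at most 1.25, 4.76 and 0.577 CPM in forestomach and at least 12.1, 17.3 and 2.27 CPM in NB intestine. The other lower one was also an oxidation gene, *HADHB*, with at most 54.6 CPM in forestomach and at least 67.1 CPM in NB intestine. The oxidation genes *ACADS*, *HADHA* and *ACAA1* overlapped. The listed synthetases *ACSM1*, *ACSM2B*, *ACSM3*, *ACSM4* and *ACSM5* did not reach a mean of 5 CPM here and were not tested. These counts therefore do not describe butyrate activation as a whole. Of the transporters, 1 of 7 tested was higher and 3 were lower, again beside 19.3% and 24.8% of all genes. The higher one was *SLC16A7*, a relative of *SLC16A1*, with 29.0 and 21.6 CPM against at most 14.1 CPM. Of the lower ones, *SLC16A11* had at most 2.31 CPM in forestomach and at least 11.5 CPM in NB intestine, and *SLC5A12* and *SLC26A3* had at most 0.0150 and 0 CPM against at least 0.283 and 0.423 CPM. *SLC16A9*, another relative, was too low on average to be tested but had 17.9 and 17.3 CPM in forestomach and at most 0.572 CPM in NB intestine. *BSG*, the chaperone that carries SLC16A1 protein to the membrane, ran from 158 to 877 CPM over the 15 libraries and overlapped between forestomach and intestine. None of the 8 tested genes known to respond to PPARA was higher in forestomach (19.3% of all genes), and 2 were lower, close to the 24.8% of all genes. Receptor genes for short-chain fatty acids and lactate (*FFAR2*, *FFAR3* and *HCAR1*) stayed at or below 1.46 CPM in all 15 libraries.

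Between stages, the gluconeogenic enzyme *PCK1*, named after its values had been seen, moved in the same directions as *SLC16A1*. It had 170 and 282 CPM in AD cecum and colon against 9.49 and 28.7 CPM in NB, and 0 and 1.80 CPM in AD duodenum and jejunum against 13.4 and 24.8 CPM in NB. *PCK1* was thus among the 4 genes that were lower in AD small and higher in AD large intestine in all epithelial barcodes. Of the 52 listed genes tested, 27 were at least 2-fold lower in AD duodenum and 3 higher, where 15% and 21.9% of all genes were. In jejunum 10 were lower and 2 higher (6.65% and 11.4% of all genes), in cecum 5 and 5 (8.42% and 6.57%), and in colon 5 and 7 (4% and 16.2%). AD duodenum was the library in which 73.4% of epithelial barcodes carried *PTPRC*.

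**Figure D4:**
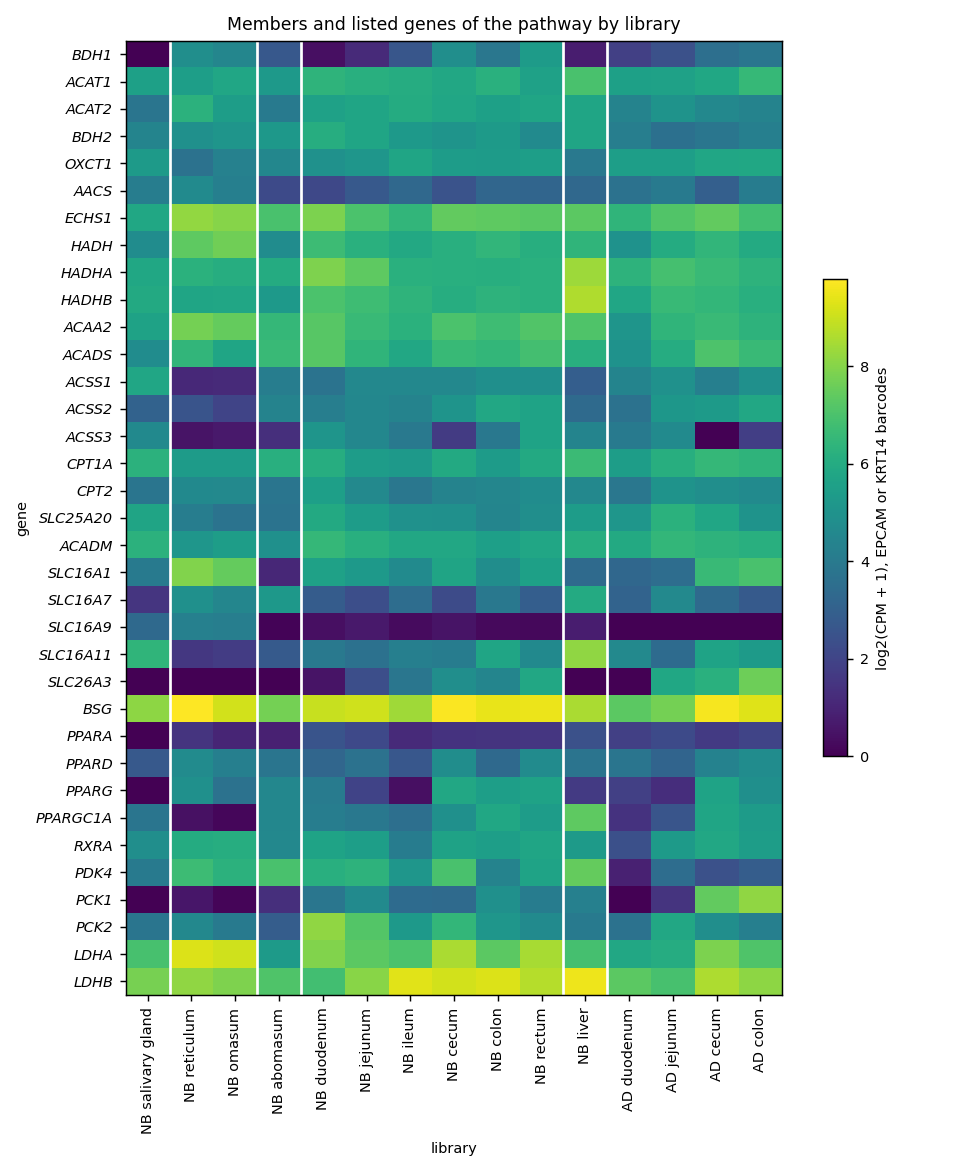
Level as log2 of CPM plus 1 (color) of the 6 members and 29 listed genes (rows) in epithelial barcodes of the 15 libraries (columns, with white lines between NB salivary gland, forestomach, abomasum, intestine, liver and AD tissues). *PCK1* is brightest in AD cecum and colon (170 and 282 CPM), and *SLC16A9* is above 1 CPM only in salivary gland and forestomach.

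Of 5175 genes with a mean of at least 20 CPM, those whose log2 levels over the 15 libraries were most like each member are given as a description. The libraries share cells of few animals and differ in depth and in the mix of cells. For *SLC16A1* these were *RND3* (Pearson r 0.90), *PLCD1* (0.89) and *KLF4* (0.89), an epithelial transcription factor that ran from 22.2 CPM in salivary gland to 403 CPM in omasum. For *BDH1* they were *WFDC18* (0.87), *TNKS1BP1* (0.87) and *EXPH5* (0.85), all highest in omasum or rectum. *ACAT1* was followed by *DELE1* (0.89), *HADHB* (0.81), a subunit of the mitochondrial trifunctional protein, and *GLOD4* (0.79). *OXCT1* was followed by *F2R*, *ABO* and *LY75* (0.87 to 0.89) and *CPT1A* by *MMP15*, *ABCC5* and *PHYHD1* (0.79 to 0.81). *PPARA* was most like *GLUD1* (0.92), the mitochondrial glutamate dehydrogenase. The level of *PPARA* was at most 4.89 CPM, with 5 CPM added before log2, and no neighboring pair of libraries had separate intervals. Its r values therefore rest on small differences between low counts. Among the members themselves the closest pairs were *ACAT1* with *PPARA* (0.63) and *BDH1* with *SLC16A1* (0.60).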

How the data were processed

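The deposited files held raw UMI counts per gene and barcode, which the authors made from 10x 3' v3 reads with Cell Ranger 3.1.0 (submitters' processing notes) on ARS-UCD1.2. The annotation release is not given in the sources used here. Libraries held 17707625 to 129458578 UMIs in 172405 barcodes. Barcodes were kept where they had from 500 to 4000 genes, fewer than 50000 UMIs and a mitochondrial share below 40%, and Scrublet (scanpy 1.11.5, 2 simulated doublets per barcode, 30 components) removed 0.8% per 1000 barcodes. No deposited cell annotation was used here. Counts of barcodes with *EPCAM* or *KRT14* were summed per library and scaled to CPM. Log2 ratios had 5 CPM added, and genes with a mean of at least 5 CPM over the compared libraries were tested for non-overlap or a 2-fold difference. "Tested" means put to this rule, since 1 library per group allows no p-value. Intervals are exact 95% Poisson, Clopper-Pearson or conditional binomial intervals (SciPy 1.17.1) and cover counting error only. A count of 0 allows 3 counts. Shares were thinned to 1000 UMIs. The genes and lists were chosen with earlier results of these data known. Genes named are the 6 members, the pathway lists and the 3 most like each member by Pearson r of log2 levels, with those named after their values had been seen said to be so. The members matched 6 entries of the RefSeq gene table by symbol. That table is of another build, so no position or sequence is given. Some listed genes are not reported here. Alternatives changed the barcode definition, filters, scaling (TMM, edgeR 4.0.16), pseudocount, thinning and libraries. The comparison script was tested on simulated data (Python 3.11.15, NumPy 2.4.6, pandas 2.3.3, R 4.3.3).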

Additional observations from a re-analysis of the deposited data

Results flagged for a closer look

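*SLC16A1* moved in opposite directions between stages in the 2 parts of the intestine. The log2 difference of AD over NB was -1.96 and -1.46 in the 2 small-intestinal tissues, duodenum and jejunum. It was 0.84 and 2.05 in the 2 large-intestinal tissues, cecum and colon. The cecum value was below the 2-fold rule, and it was 0.13 with equal weight per barcode and 0.18 with the limit on mitochondrial UMIs at 20%. In NB duodenum and jejunum the gene was higher in leukocytes, at 88.0 and 98.6 CPM, than in epithelial barcodes, at 47.8 and 37.4 CPM. In *COL1A2* barcodes it was lower, at 16.7 and 15.6 CPM. Each part was represented by 2 tissues with 1 library per stage, so every tissue of one part moved one way and every tissue of the other part the opposite way, but the difference between the parts was not tested. The enterocyte list moved in the same directions, from 14060 to 463 CPM in duodenum, 17953 to 4528 in jejunum, 280 to 775 in cecum and 395 to 1351 in colon, and its part in the result was not tested. Stage, animal and dissociation cannot be told apart.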

How the results depend on the processing

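*SLC16A1* was called higher and *OXCT1* lower in NB forestomach than in NB intestine under every alternative that was run. The number of members called lower, 1 in the report, was 3 in barcodes without *PTPRC*, *COL1A2* or *PECAM1* (*CPT1A* and *ACAT1* added, with 21.1% of all genes lower), 2 with at least 2 UMIs (*ACAT1* added, 20.5%) and 2 with scaling without mitochondrial and abundant genes (*ACAT1* added, 32.4%). Leaving out 1 library at a time gave 1 to 2, with *ACAT1* added without omasum or without rectum, and *CPT1A* without ileum. Over these 8 settings 25.1 to 31.5% of all genes were lower and 19.9 to 26.5% higher. Against NB liver the number called lower went from 2 to 1 with equal weight per barcode, to 0 with TMM scaling and to 1 with the 25% of liver barcodes with the largest share of hepatocyte genes, where *ACAT1* reversed to 0.0832 on the log2 scale. With TMM scaling 16.6% of all genes were higher and 10.2% lower than in liver, and against the 25% of liver barcodes 17.1% were lower. The shares of all genes with equal weight per barcode are not given here. In the comparison of stages, the share of genes higher in 4 of 4 tissues was 1.6% in barcodes without *PTPRC*, *COL1A2* or *PECAM1* and 3.99% with equal weight per barcode, and the share lower was 1.39% with equal weight and 1.61% with TMM scaling. With TMM scaling *ACAT1* and *CPT1A* also passed the 2-fold rule in duodenum, as lower in AD. The share of all genes lower there with this scaling is not given here, and their median moved from 0.23 to -0.24. The cause of these shifts was not tested. The median log2 ratio of all genes between forestomach and intestine went from -0.04 to -0.22 with scaling without mitochondrial and abundant genes. The log2 difference of *SLC16A1* between AD and NB ran over all alternatives from -2.42 to -1.59 in duodenum, -2.15 to -1.09 in jejunum, 0.13 to 1.15 in cecum and 1.45 to 2.86 in colon. Of the log2 ratios of members under alternatives, 329 moved by less than their 95% interval, 60 moved by more, including changes of sign in values that were not called, and 1 called value reversed. No paired analysis was possible because each tissue and stage had 1 library and the 4 tissues compared between stages are not replicates of each other. Depth limits *PPARA* in salivary gland, with 0 UMIs, and *BDH1* in liver, salivary gland and AD duodenum, where it rested on 0 to 3 UMIs.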

Other observations

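Barcodes rich in goblet cell genes, the mucus-secreting cells, were not described above. In AD colon *ACAT1* had 150 CPM (131 to 170) in the 25% of barcodes with the largest share of goblet genes against 50.3 CPM (41.2 to 60.9) in the others, and in AD cecum 80.1 against 39.3 CPM. In NB cecum it had 93.8 against 38.7 CPM and in NB rectum 62.5 against 39.1 CPM, but in NB jejunum 57.1 against 78.1 CPM. *BDH1* was lower in the goblet set of AD cecum, at 3.57 against 16.2 CPM, and of NB colon, at 6.96 against 16.5 CPM. *SLC16A1* had 57.9 against 126 CPM in AD cecum but 191 against 78.6 CPM in AD colon. The goblet sets were deeper than the others, with medians of 15184 against 4240 UMIs in AD cecum and 13400 against 4551.5 in AD colon. Epithelial barcodes with *PTPRC*, *COL1A2* or *PECAM1* were part of these splits as well.

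In AD jejunum, the 25% of barcodes richest in tuft cell genes, a chemosensory type, had 155 CPM of *CPT1A* (120 to 196) against 51.8 CPM, and 17.9 against 48.3 CPM of *OXCT1*. The tuft list made up 0.164% of their UMIs. No UMI of *SLC16A1* was counted in them, against 12.4 CPM in the others.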
